A study of Mus musculus with 36 samples.

Results

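The mitochondrially encoded transcripts are the genes whose name starts with mt- in the count tables of Lrig1 GL and Lgr5 GL cells. The mouse annotation used here (GENCODE M21, GRCm38) places 37 such genes on the mitochondrial chromosome (chrM), with 2 rRNA, 13 protein and 22 tRNA genes. The Lrig1 GL table lists 24 of them among its 20181 genes, and the Lgr5 GL table lists 20 among 22587. Both rRNA genes and all 13 protein genes are in both tables, so the tables differ in the tRNA genes, with 9 of 22 listed for Lrig1 GL and 5 of 22 for Lgr5 GL. After a filter on low counts, 20 of the 24 genes were tested in Lrig1 GL and 18 of the 20 in Lgr5 GL, and each gene that was removed is a tRNA gene.

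Mini-bulk RNA-seq was made from tdTomato+ epidermal cells sorted from mouse tail skin, in a zone that held the wound bed and the hair follicles (HFs) distal to it. The mice carried Lrig1-EGFP-ires-CreERT2 or Lgr5-EGFP-ires-CreERT2 together with the reporter allele Rosa26-fl/STOP/fl-tdTomato. All groups, the unwounded included, had been given hydroxytamoxifen once on the tail skin, which switches on tdTomato in cells where the Lrig1 or the Lgr5 promoter drives Cre and leaves it on in their progeny. Lrig1 marks stem cells of the HF junctional zone and Lgr5 marks stem cells of the lower HF. Both populations were sampled without a wound (0w), 1, 2, 4 or 8 weeks after a first wound (1w pw1 to 8w pw1) and 1 week after a second one (1w pw2, labelled 9W). Each of the 12 groups had 3 libraries, or 36 in all. By the paper's methods 0w was 1 week after labelling, and no unwounded group was sampled at the later times. Wounding therefore cannot be told apart from age or from the time since labelling in comparisons with 0w.

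The mitochondrial genome is a small circle present in many copies per cell, transcribed from both strands as long precursors from which tRNAs are cut out between the rRNAs and mRNAs. Its proteins are subunits of the respiratory chain, namely of complex I, III and IV and of the ATP synthase (complex V), whose other subunits are encoded in the nucleus. Most mitochondrial mRNAs and the rRNAs carry short poly(A) tails, while mature tRNAs do not, and the libraries here were captured with oligo(dT).

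The genes lie end to end, and 9 pairs of neighbours overlap. The longest overlap on one strand is that of mt-Atp8 and mt-Atp6, which share 43 bases, so a read inside it cannot be assigned to 1 of the genes alone. It is shown because the 2 genes are described separately below. Capitals mark the shared bases of the 3′ end of mt-Atp8 (chrM:7907-7969, plus strand, GRCm38) and the 5′ end of mt-Atp6 (chrM:7927-7989, plus strand).
mt-Atp8: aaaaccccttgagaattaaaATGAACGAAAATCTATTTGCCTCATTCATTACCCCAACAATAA
mt-Atp6: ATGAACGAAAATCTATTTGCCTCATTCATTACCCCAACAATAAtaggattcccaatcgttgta

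A stretch of 4663 bases on chromosome 1 (chr1:24611535-24616197, minus strand) holds 7 annotated pseudogenes that copy mitochondrial genes from mt-Co1 to mt-Nd4 with almost no difference. The first 60 bases of mt-Co2 (chrM:7013-7072, plus strand) and of its copy Gm28661 (chr1:24615506-24615565, minus strand) show how alike they are. Over all 681 aligned bases they have no mismatch.
mt-Co2: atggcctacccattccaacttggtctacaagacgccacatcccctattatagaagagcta
Gm28661: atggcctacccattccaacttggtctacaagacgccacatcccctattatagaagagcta
Over the aligned bases, which begin at base 10 of Gm29216, only 2 of the 7 copies differ from the mitochondrial gene, by 1 base each. With positions counted from the first base of the mitochondrial gene, the substitutions are A1066T between mt-Co1 and Gm29216 and T3C between mt-Nd3 and Gm28438. The base that differs is in capitals for mt-Co1 (chrM:6390-6423, plus strand), Gm29216 (chr1:24616155-24616188, minus strand), mt-Nd3 (chrM:9459-9491, plus strand) and Gm28438 (chr1:24613087-24613119, minus strand).
mt-Co1: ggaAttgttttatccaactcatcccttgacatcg
Gm29216: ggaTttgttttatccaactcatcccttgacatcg
mt-Nd3: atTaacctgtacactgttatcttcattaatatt
Gm28438: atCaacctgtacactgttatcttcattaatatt
The other copies, Gm10925 of mt-Atp6, Gm28437 of mt-Co3, Gm10222 of mt-Nd4l and Gm28439 of the first 876 bases of mt-Nd4, align without a mismatch. For mt-Rnr1, mt-Rnr2 and mt-Nd1 no nuclear transcript of at least 90% identity was found, so counts of these 3 genes are not divided with an annotated copy.

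The rRNA genes are shown at their longest run of A, since the RNA was captured by oligo(dT). Capitals mark a run of 5 A in mt-Rnr1 (chrM:680-734, plus strand) and of 7 A in mt-Rnr2 (chrM:1463-1519, plus strand).
mt-Rnr1: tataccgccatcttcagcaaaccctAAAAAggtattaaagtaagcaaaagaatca
mt-Rnr2: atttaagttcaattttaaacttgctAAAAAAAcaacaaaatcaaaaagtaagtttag
Runs of this length are not particular to mt-Rnr2, since the longest run in the protein genes was between 3 and 8 bases. The tRNA gene mt-Ts1 (chrM:6870-6938, minus strand) is shown whole, because it is the only tRNA gene that passed a test below. Its last 3 bases, in capitals, are the reverse complement of the end of mt-Co1.
mt-Ts1: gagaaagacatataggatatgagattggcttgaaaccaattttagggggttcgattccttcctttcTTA

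Library totals were between 765252 and 3365666 counts in Lrig1 GL and between 1297798 and 6960537 in Lgr5 GL, so the 95% Wilson interval of a mitochondrial share was at most 0.107 percentage points wide. Intervals and floors cover counting error only. The floor was set at 3 counts per library, which is 0.431 to 3.92 CPM (the count scaled to the size of its library). Summed keratinocyte markers (Krt5, Krt14, Trp63, Krt15, Krt10, Krt1, Dsp and Perp) were at 31697 to 56756 CPM in Lrig1 GL and at 12502 to 39257 CPM in Lgr5 GL. Summed markers of immune, melanocyte, endothelial and muscle cells stayed at or below 48.3 CPM in each library. Fibroblast markers were at 2.52 to 48.4 CPM in Lrig1 GL and at 52.7 to 378 CPM in Lgr5 GL, and Lum, Cd3e, Cd207, Lyz2, Tyr, Mlana, Cdh5, Kdr and Des are not listed for Lrig1 GL. The nuclear gene Gm12415 took up to 52.1% of all counts in an Lgr5 GL library, which lowers the shares of the other genes there. The study gives its replicates as mice, while the labels tie no library to an animal, so p-values measure the spread between these libraries, which may be partly technical.

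The rRNA and protein genes took nearly all mitochondrial counts. Summed over 18 libraries, the rRNA genes had 1153652 counts, the protein genes 1536752 and the tRNA genes 2132 in Lrig1 GL, against 868552, 1055361 and 1562 in Lgr5 GL. Within the rRNA class mt-Rnr2, the rRNA of the large ribosomal subunit, had 1136403 counts in Lrig1 GL and mt-Rnr1, the rRNA of the small subunit, 17249. Both rRNAs come from the same precursor and each ribosome holds one of each, while the counts are of the RNA that oligo(dT) captured. The tRNA genes that were counted lay mostly on the minus strand, with 6 of its 8 listed for Lrig1 GL and 5 of 8 for Lgr5 GL, while of the 14 on the plus strand 3 (mt-Tk, mt-Tg and mt-Tt) and 0 were listed. How the counting treated strand and reads with more than 1 best position is not given in the sources used here.

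In Lrig1 GL the mitochondrial share of counts at 8w pw1 was above that of all other libraries, and the protein genes carried most of the difference. The protein share was 2.09, 1.44 and 2.09% in the 3 libraries at 0w and 9.78, 6.08 and 9.69% at 8w pw1, or 1.87 ± 0.378% and 8.51 ± 2.11% (mean ± SD, n = 3). The rRNA share was 3.28, 1.71 and 3.13% at 0w and 4.65, 4.83 and 3.21% at 8w pw1. The protein shares of these time points lay far apart, whereas the rRNA shares overlapped. At the other time points the protein share was 4.92, 2.15 and 1.59% at 1w pw1, 2.26, 2.29 and 3.82% at 2w pw1, 2.00, 1.94 and 5.23% at 4w pw1 and 5.77, 4.80 and 2.96% at 1w pw2. One library each at 1w pw1, 2w pw1 and 4w pw1 thus stood above the others of its group, and the 3 libraries at 1w pw2 lay above those at 0w.

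In Lgr5 GL the protein share was 1.00, 0.965 and 1.34% at 0w and 2.08, 1.46 and 1.61% at 8w pw1, with 0.546, 1.27 and 0.566% at 4w pw1. The rRNA share at these time points was 0.975, 1.15 and 1.76%, 1.20, 1.78 and 1.01% and 0.642, 0.876 and 0.673%. The protein shares at 8w pw1 lay slightly above those at 0w, but with the counts of Gm12415 left out of the totals they were 1.41, 1.44 and 2.46% at 0w and 2.98, 1.86 and 1.90% at 8w pw1, which overlapped. The rRNA shares of both time points overlapped too. All rRNA genes together were 61.0, 54.4 and 59.9% of the mitochondrial counts of Lrig1 GL at 0w and 32.2, 44.3 and 24.9% at 8w pw1, without overlap, against 49.3, 54.3 and 56.7% and 36.6, 54.9 and 38.7% in Lgr5 GL, which did overlap. In Lgr5 GL the rRNA part was also below that of 0w at 1w pw1 (48.2, 45.6 and 49.0%) and at 2w pw1 (32.6, 45.5 and 39.9%), without overlap. Counts on the chromosome 1 copies are left out of these parts. In Lgr5 GL the copies had 0.872, 0.698 and 1.34% of all counts at 0w. They had 0.185, 0.262 and 0.947% at 1w pw1 and 0.298, 0.337 and 0.337% at 2w pw1. The rRNA parts of Lgr5 GL, and their differences from 0w, thus depend on how reads were divided between genes and copies.

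**Figure D1:**
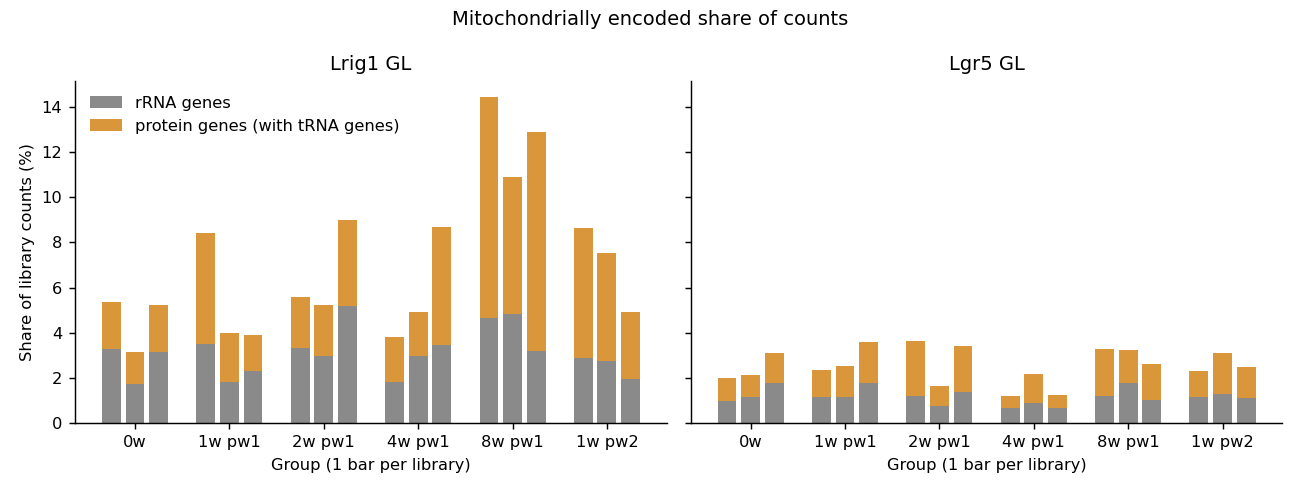
Share of the counts of each library on mitochondrially encoded genes, in percent, with 1 bar per library grouped by time point, the rRNA genes in grey and the protein genes (with the small tRNA part) in orange. The 3 Lrig1 GL libraries at 8w pw1 stand highest, with protein shares of 9.78, 6.08 and 9.69%, and no Lgr5 GL library reaches 4%. The totals of Lgr5 GL include Gm12415. With its counts left out, mitochondrial shares of Lgr5 GL reach 5.68% and overlap those of Lrig1 GL at 0w (3.15 to 5.38%).

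Differences between groups were tested with edgeR's quasi-likelihood F-test over all genes of a table, and a gene was called where its Benjamini-Hochberg adjusted p was under 0.05 and its log2 fold change above 1 in size. Levels below are CPM scaled by TMM, and changes are log2 fold changes against 0w with their SE. In bulk samples, fewer cells of a type and less RNA per cell cannot be told apart.

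At 8w pw1 in Lrig1 GL, 8 of the 20 mitochondrial genes tested rose and none fell, where 1.52% of all 14306 genes tested were called higher. The 8 were mt-Rnr1, 6 of 13 protein genes (mt-Co1, mt-Co2, mt-Co3, mt-Nd2, mt-Nd4 and mt-Nd5) and 1 of 5 tRNA genes (mt-Ts1, whose counts at 0w were few, as given below). The log2 changes of the 15 rRNA and protein genes were all positive, from 0.89 to 4.27 with a median of 2.11, beside a median of -0.01 over all genes. In all 15 of these genes each library at 8w pw1 was above each library at 0w, which held for 14.8% of all genes. Without replicate a of 8w pw1 none was called, without replicate b 5 and without replicate c 3, and leaving out a library of 0w left 1, 5 and 4 for replicates 1, 2 and 3. With the trend of the counts on GC content removed 0 mitochondrial genes and 66 of all genes were called. With 2 surrogate variables in the fit, a correction that the paper's methods also name, no gene of the table was called in this comparison. The calls of the main fit, the mitochondrial ones among them, were thus not kept in that fit. As it called no gene here, it does not set the mitochondrial genes apart from the others. Over the time course the same fit called 9 of all genes and 0 of the 20 mitochondrial ones. DESeq2 and edgeR's likelihood ratio test each called 16 of the 20, with 1571 and 1408 of all genes.

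The rRNA genes behaved unequally. mt-Rnr1 was at 232, 203 and 204 CPM at 0w and at 1221, 727 and 809 CPM at 8w pw1. Every later group of Lrig1 GL was above 0w for this gene, with 752, 457 and 392 CPM at 1w pw1, 392, 237 and 271 CPM at 4w pw1, and with 548, 682 and 485 CPM after the second wound. It rose by 2.11 ± 0.33 on the log2 scale (SE, adjusted p = 0.0125) at 8w pw1, and was called in 17 of 18 fits that left out 1 library (1.85 to 2.23), the exception being the fit without replicate a of 8w pw1. mt-Rnr2 was at 31786, 15580.5 and 29699.9 CPM at 0w and 55716, 51094 and 35833 CPM at 8w pw1. On this scale the groups did not overlap, unlike the rRNA shares of the unscaled counts, and the change of 0.89 ± 0.36 on the log2 scale (SE, adjusted p = 0.15) did not pass. Per count of mt-Rnr1 there were 137, 76.7 and 146 counts of mt-Rnr2 at 0w, 45.6, 70.3 and 44.3 at 8w pw1 and 53.0, 46.1 and 39.1 at 1w pw2. The ratio at 0w thus lay above that of both later time points, and also above the 44.2, 33.5 and 53.1 at 1w pw1, while it was 94.2, 109 and 120 at 2w pw1, within the range of 0w. In Lgr5 GL the ratio was 73.3, 68.3 and 57.1 at 0w and 47.3, 50.4 and 58.8 at 8w pw1, which overlapped, but 35.0, 30.6 and 39.4 at 1w pw2, below 0w as in Lrig1 GL.

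The subunits of complex IV (cytochrome c oxidase), the last enzyme of the electron transport chain, had the highest changes of the protein genes. mt-Co1, its catalytic core subunit, was at 4148, 3476 and 3930.0 CPM at 0w and 39853, 21584 and 39429.7 CPM at 8w pw1. mt-Co2, which receives electrons from cytochrome c, was at 592, 265 and 378 CPM and 10182, 2782 and 8119 CPM. mt-Co3, the third core subunit, was at 1671, 593 and 833 CPM and 29696, 9395 and 20695 CPM. In each of the 3 genes all libraries at 8w pw1 lay above all at 0w, and replicate b of 8w pw1 was the lowest. mt-Co1 rose by 3.13 ± 0.58 on the log2 scale (SE, adjusted p = 0.0163). mt-Co2 rose by 4.09 ± 0.84 on the log2 scale (SE, adjusted p = 0.0238). mt-Co3 rose by 4.27 ± 1.01 on the log2 scale (SE, adjusted p = 0.0356). Replicate c of 4w pw1 was also high, with 13916 CPM of mt-Co1, 3219.6 of mt-Co2 and 11599.6 of mt-Co3, whereas the other libraries of that group were at 4810.2 and 4567 CPM of mt-Co1. Leaving out single libraries kept mt-Co1 called in 16 of 18 fits, mt-Co2 in 14 and mt-Co3 in 12.

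Complex I (NADH dehydrogenase), where electrons enter from NADH, has 7 mitochondrially encoded subunits, of which 3 rose. mt-Nd2 was at 399, 394 and 508 CPM at 0w and 2113, 1097 and 2159 CPM at 8w pw1, a change of 2.05 ± 0.42 on the log2 scale (SE, adjusted p = 0.0238). mt-Nd4 was at 1278, 1175 and 1502 and 6446, 3620.2 and 6649.5 CPM, a change of 2.08 ± 0.36 on the log2 scale (SE, adjusted p = 0.016). mt-Nd5 was at 1149.7, 844 and 1219 and 3995, 3059 and 3551 CPM, a change of 1.72 ± 0.40 on the log2 scale (SE, adjusted p = 0.0336). The 3 genes encode the proton pumping subunits of the membrane arm, and in each the groups were well apart. mt-Nd1, next to mt-Rnr2 in the genome, was at 4749.5, 3092 and 6769 CPM at 0w and 11931, 10809 and 12708 CPM at 8w pw1, and its change of 1.28 ± 0.37 (adjusted p = 0.064) did not pass. mt-Nd6, the only protein gene on the minus strand, was at 398, 398 and 451 and 1048, 732 and 1029 CPM, with a change of 1.17 ± 0.34 (adjusted p = 0.0637). It shares 14 bases with mt-Nd5 on the other strand, so reads there cannot be told apart. The short genes mt-Nd3 and mt-Nd4l had changes of 2.56 ± 0.70 (adjusted p = 0.0553) and 2.76 ± 0.76 (adjusted p = 0.0544), from 24.9 ± 10.5 to 147 ± 66.8 CPM and from 36.3 ± 27.7 to 247 ± 97.8 CPM (mean ± SD, n = 3). None of these 4 genes passed the threshold, although none had overlapping groups.

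In complex III, which passes electrons from ubiquinol to cytochrome c, mt-Cytb is the mitochondrially encoded subunit. It was at 4313, 2613 and 3806 CPM at 0w and 9387, 9269.7 and 8375 CPM at 8w pw1. The groups did not overlap, and the change of 1.33 ± 0.41 on the log2 scale (SE, adjusted p = 0.0716) did not pass. In complex V, mt-Atp6 (part of the proton channel) was at 1524, 322 and 498 and 4249, 2459 and 7052 CPM. mt-Atp8 was at 113, 15.4 and 28.8 and 488, 142 and 403 CPM. Replicate 1 of 0w was several times higher than the other 0w libraries in both genes. Their changes were 2.55 ± 0.83 (adjusted p = 0.0834) and 2.71 ± 0.92 (adjusted p = 0.096), and neither passed.

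The tRNA genes had few counts. mt-Ts1, the tRNA gene directly after mt-Co1 on the other strand, had 11, 4 and 2 counts at 0w and 179, 46 and 122 at 8w pw1, or 5.65, 1.62 and 1.28 and 65.2, 28.1 and 65.4 CPM. The groups were well apart, and it rose by 4.18 ± 1.10 on the log2 scale (SE, adjusted p = 0.0497). One of the 0w libraries was below the floor of 3 counts, and reads of mt-Ts1 and of RNA running past the end of mt-Co1 cannot be told apart without strand. mt-Tp, next to the control region, was at 13.3, 20.7 and 16.7 CPM at 0w and 21.5, 23.2 and 18.2 CPM at 8w pw1, with a change of 0.31 ± 0.61 (adjusted p = 0.794). It had the most counts of the tRNA genes in both populations, 694 and 927. mt-Tc was at 1.54, 0 and 0.640 CPM at 0w and 12.7, 7.33 and 10.2 CPM at 8w pw1, mt-Te at 1.54, 1.22 and 0.640 and 17.1, 6.72 and 9.65 CPM, and mt-Tq at 6.67, 0.812 and 0.640 and 11.7, 4.27 and 6.43 CPM. All 0w libraries of mt-Tc and mt-Te were at or below 3 counts, and the changes of these 3 genes did not pass (adjusted p = 0.0769, 0.2 and 0.44). The other 4 tRNA genes listed (mt-Tn, mt-Tt, mt-Tg and mt-Tk) had 14 to 78 counts over 18 libraries and were not tested.

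**Figure D2:**
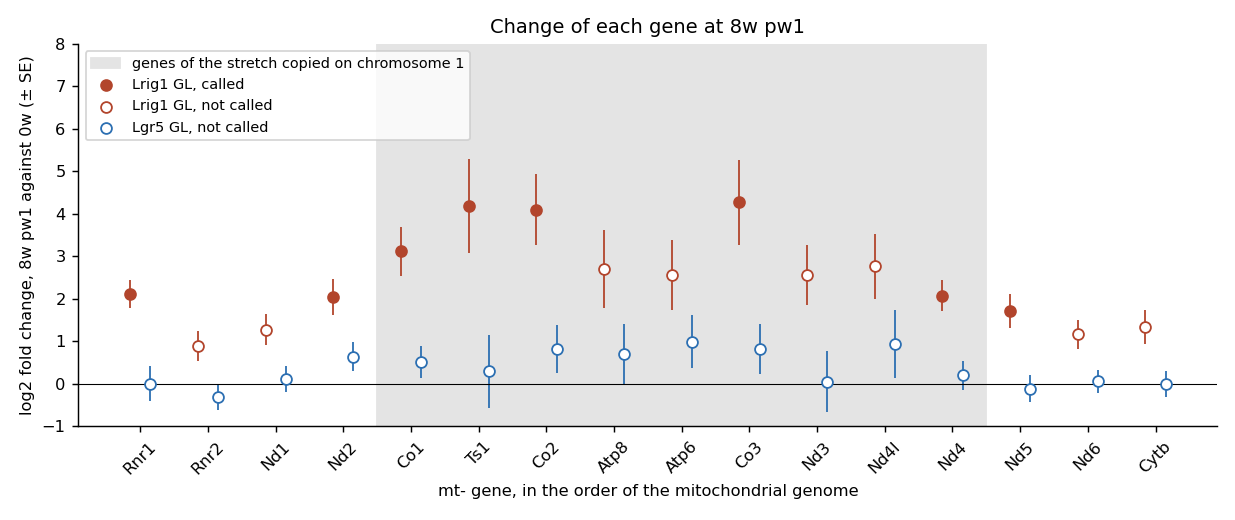
Log2 fold change at 8w pw1 against 0w (vertical axis, ± SE) of the rRNA and protein genes and mt-Ts1 in genome order, Lrig1 GL in red (filled where called) and Lgr5 GL in blue, with the genes that are copied wholly or in part on chromosome 1 shaded. Lrig1 GL values run from 0.89 to 4.27, and no Lgr5 GL gene was called.

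The changes differed along the genome. The stretch copied on chromosome 1 starts inside mt-Co1, of which it holds bases 1063 to 1545 (31.3%), and ends inside mt-Nd4, of which the copy holds 63.6%. The 8 protein genes that lie wholly or in part in it, from mt-Co1 to mt-Nd4, changed by 2.08 to 4.27 with a median of 2.74, and 4 were called. The other 7 rRNA and protein genes changed by 0.89 to 2.11 with a median of 1.33, and 3 were called. In Lgr5 GL the same groups of genes changed by 0.06 to 0.99 (median 0.76) and by -0.30 to 0.64 (median 0.00), with none called. The 7 copies on chromosome 1 had a median change of 1.56 in Lrig1 GL and of -1.96 in Lgr5 GL. The changes of the stretch in Lgr5 GL thus depend on how reads were divided between genes and copies. Those in Lrig1 GL depend on it too. There the mean share of counts given to the 7 mitochondrial genes rather than their copies was 79.9% at 0w and 91.2% at 8w pw1. It went from 61.9 to 85.9% for mt-Co3, but only from 89.7 to 91.7% for mt-Nd4. These are descriptions of the genes, and no test compared the stretches.

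**Figure D3:**
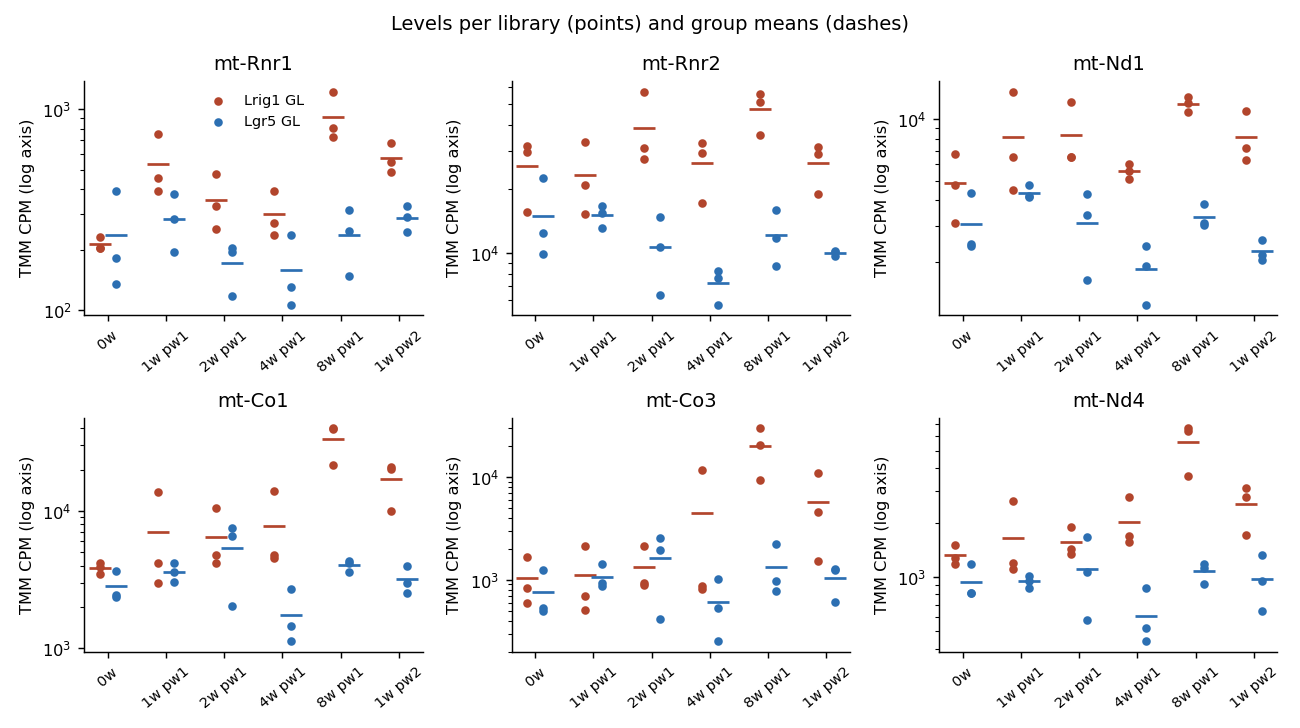
CPM scaled by TMM (log axis) of 6 genes in each library (points) with the group means (dashes), Lrig1 GL in red and Lgr5 GL in blue. For mt-Co1 the Lrig1 GL libraries at 8w pw1 sit between 21584 and 39853 CPM and those of 0w between 3476 and 4148 CPM.

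At the earlier time points no mitochondrial gene of Lrig1 GL was called. At 1w pw1, where 0.217% of all genes were called, this was 0 of 20. DESeq2 and edgeR's likelihood ratio test each called 1 (348 and 287 of all genes). At 2w pw1, with 0% of all genes called, and at 4w pw1, with 0.0419%, it was also 0 of 20, and 0 by both other tests. At an unadjusted p under 0.05 were 3, 4 and 4 of the 20 genes at these time points, beside 11%, 10.5% and 8.37% of all genes. Of these, 1, 1 and 2 were tRNA genes, which had few counts. The smallest adjusted p at 1w pw1 was that of mt-Rnr1, whose change was 1.32 ± 0.32 (adjusted p = 0.119). At 4w pw1 the highest change of a protein gene was that of mt-Co3, 2.10 ± 0.92 (adjusted p = 0.56), with 869.8, 813 and 11599.6 CPM, of which only replicate c was clearly above the 0w libraries.

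After the second wound, at 1w pw2, mt-Rnr1 alone rose, by 1.42 ± 0.32 on the log2 scale (SE, adjusted p = 0.0386), where 0.993% of all genes were called higher. The likelihood ratio test called 4 mitochondrial genes here and DESeq2 5 (825 and 1019 of all genes), and 0 were called without a filter on low counts or with the GC trend removed. At an unadjusted p under 0.05 were 9 of the 20 genes, 2 of them tRNA genes with few counts, beside 18.5% of all genes. With 1 library left out between 0 and 3 genes were called. The count was 0 without any 1 library of 0w or 1w pw2, replicate 2 of 1w pw1, replicate a of 2w pw1 or replicates b or c of 8w pw1, 2 without replicate 1 of 1w pw1 or c of 2w pw1, and 3 without replicate c of 4w pw1. mt-Co1 was at 20856, 20237 and 9952 CPM, above all 0w libraries, and its change was 2.14 ± 0.55 (adjusted p = 0.0641). mt-Co3 was at 10986, 4532 and 1521 CPM, and replicate 3 lay below the highest 0w library. Set against 1w pw1, with 0% of all genes called, no mitochondrial gene was called at 1w pw2 (0 by DESeq2 and by the likelihood ratio test), and 8 of 20 had an unadjusted p under 0.05, beside 8.87% of all genes. Set against 8w pw1, where 0.00699% of all genes were called, 0 were called by each of the 3 tests and 7 of 20 were under 0.05, beside 5.72% of all genes. The mean of mt-Nd4 was 5572 ± 1693 CPM at 8w pw1 against 2529 ± 728 CPM after the second wound (mean ± SD, n = 3), a difference of -1.14 ± 0.35 (adjusted p = 0.751). Over the whole time course of Lrig1 GL 6 genes were called (mt-Rnr1, mt-Co1, mt-Co2, mt-Co3, mt-Nd3 and mt-Nd4), with 1.63% of all genes. Without replicate a, b or c of 8w pw1 the count was 0, 3 and 1, without replicate 2 of 1w pw2 it was 2, and it was 3 without replicate 3 of 0w, replicates 2 or 3 of 1w pw1 or replicate a of 2w pw1.

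In Lgr5 GL no mitochondrial gene was called at any time point or over the time course. Over the time course, where 1.13% of all 18025 genes were called, 0 of 18 were called and 5 had an unadjusted p under 0.05, beside 16.9% of all genes, and DESeq2 and the likelihood ratio test also called 0. mt-Co1 was at 2367, 2437 and 3682 CPM at 0w and 4347, 3569.5 and 4151 CPM at 8w pw1. mt-Rnr1 was at 135, 181 and 394 and 248, 316 and 148 CPM, and mt-Rnr2 at 9924, 12377 and 22507 and 11719, 15899.8 and 8724 CPM. The groups overlapped in each of the 3 genes. At 8w pw1 their changes were 0.51 ± 0.38 (adjusted p = 1), 0.00 ± 0.41 (adjusted p = 1) and -0.30 ± 0.30 (adjusted p = 1), with 0 of 18 genes under an unadjusted p of 0.05 (5.94% of all genes were) and 0% of all genes called. SEs of the rRNA and protein genes were between 0.27 and 0.80 in this comparison, so differences of up to about 1 on the log2 scale were not resolved for most of them.

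At 4w pw1 the Lgr5 GL levels were mostly low. mt-Rnr2 was at 8243, 7661 and 5740.1 CPM, all below the lowest 0w library (9924 CPM). mt-Cytb was at 1551, 1864 and 992 CPM, against 2483, 2416 and 3931 at 0w, again without overlap. For 4 of the 18 genes tested each library at 4w pw1 was below each library at 0w, beside 7.79% of all genes. The changes of the 15 rRNA and protein genes had a median of -0.61, and that of mt-Nd4l was the only positive one. While 5 of 18 genes were at an unadjusted p under 0.05 (mt-Rnr2, mt-Cytb, mt-Nd5, mt-Nd6 and mt-Nd1), beside 10.7% of all genes, 0 were called by edgeR's quasi-likelihood test, by its likelihood ratio test or by DESeq2, where 0.155% of all genes were called. The change of mt-Rnr2 was -1.05 ± 0.31 (adjusted p = 0.222) and that of mt-Nd5 -0.96 ± 0.32 (adjusted p = 0.295). Summed keratinocyte markers were also low in these libraries, at 15046, 17812 and 12502 CPM against 33125, 36093 and 28808 CPM at 0w, and so were the library totals, at 1359006, 2116933 and 1297798 counts against 4545293, 5270132 and 3775424. Their part in the mitochondrial levels was not tested. At 1w pw1, 2w pw1 and 1w pw2, with 1.29%, 0% and 0% of all genes called, 0 mitochondrial genes were called and 0, 1 and 0 had an unadjusted p under 0.05, beside 18.6%, 8.79% and 6.42% of all genes. At 1w pw2 against 1w pw1, with 0.266% of all genes called, 0 were called and 2 of 18 were under 0.05 (mt-Nd1 and mt-Cytb), a lower share than the 16.8% of all genes. Against 8w pw1 0 were called and 0 were under 0.05, with 0% and 3.83% of all genes. DESeq2 and the likelihood ratio test called 0 in each of these. Leaving out 1 library changed none of these counts but that of the time course, which was 1 without replicate b of 2w pw1.

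Whether the changes differed between populations was tested with an interaction term over all 36 libraries. At 8w pw1 1 of 20 genes differed, where 1.11% of 16153 genes did. mt-Rnr1 changed by 2.17 ± 0.53 more in Lrig1 GL than in Lgr5 GL on the log2 scale (SE, edgeR's quasi-likelihood test, adjusted p = 0.0425). Leaving out 1 library moved the count in 28 of 36 fits, to between 0 and 4 genes. It was 0 without any 1 library of 0w, 8w pw1 or 1w pw2 or replicate 2 of 1w pw1 in Lrig1 GL, and without any 1 library of 8w pw1 or 1w pw2, replicates b or c of 0w, 2 or 3 of 1w pw1, a or c of 2w pw1 or c of 4w pw1 in Lgr5 GL. It was 4 without replicate 1 of 1w pw1, 2 without replicate 3 of 1w pw1, and 3 without replicate c of 2w pw1 or of 4w pw1 in Lrig1 GL or replicate b of 2w pw1 in Lgr5 GL. The differences of mt-Co1 (2.68, adjusted p = 0.0513), mt-Nd4 (1.94, adjusted p = 0.0527) and mt-Nd5 (1.90, adjusted p = 0.0594) were close to the threshold. At an unadjusted p under 0.05 were 14 of the 20 genes, beside 17.6% of all genes. Among them were the tRNA genes mt-Ts1 and mt-Tc, which had few counts. The likelihood ratio test called 6 mitochondrial genes at 8w pw1 (693 of all genes), and with the GC trend removed 0 were called (22 of all genes). At the other time points 0 genes differed by edgeR's quasi-likelihood or likelihood ratio test, where 0.0495%, 0% and 0.0929% of all genes differed at 1w, 2w and 4w after the first wound and 0.155% at 1w pw2. Under an unadjusted p of 0.05 were 0, 3, 7 and 7 of the 20 genes, beside 15%, 9.34%, 10.5% and 13% of all genes.

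The counts of 7 mitochondrial genes and of their copies on chromosome 1 were divided differently in the populations. Of the counts on both, the mitochondrial genes had 84.8, 78.7 and 76.3% in Lrig1 GL at 0w and 93.2, 87.2 and 93.3% at 8w pw1. In Lgr5 GL they had 33.0, 37.2 and 30.4% at 0w and 75.2, 68.1 and 77.9% at 8w pw1. Most counts on these sequences in Lgr5 GL at 0w were thus given to the nuclear copies, and at each later time point the mean share was at least 61.6%. The copies are mitochondrial sequence almost base for base, so the sequence alone could not place most of these reads. Gm28437, the copy of mt-Co3, was at 2511, 2166 and 5710.0 CPM at 0w in Lgr5 GL and at 581, 444 and 591 CPM at 4w pw1. It fell by 2.68 on the log2 scale at 4w pw1 (adjusted p = 0.0363), as did Gm28439, the copy of mt-Nd4, by 2.36 (adjusted p = 0.0465), where 0.105% of all genes were called lower. In Lrig1 GL the same Gm28437 was at 520.4, 472 and 719 CPM at 0w and 3010.1, 2765 and 2426 CPM at 8w pw1. There 4 of the 7 copies rose, where 1.52% of all genes were called higher. The changes were 2.26 for Gm28437 (adjusted p = 0.0238), 1.89 for Gm28661 (adjusted p = 0.0356), 1.56 for Gm29216 (adjusted p = 0.0356) and 1.63 for Gm28439 (adjusted p = 0.0476). As the sequences are nearly the same, these rises are not separate from those of the mitochondrial genes. With the counts of each copy added to its mitochondrial gene, 10 of 20 genes rose in Lrig1 GL at 8w pw1, where 401 of all genes were called in either direction. The changes were 3.02 for mt-Co1, 3.69 for mt-Co2, 3.82 for mt-Co3 and 2.04 for mt-Nd4. In Lgr5 GL 0 were called in this form at any time point.

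**Figure D4:**
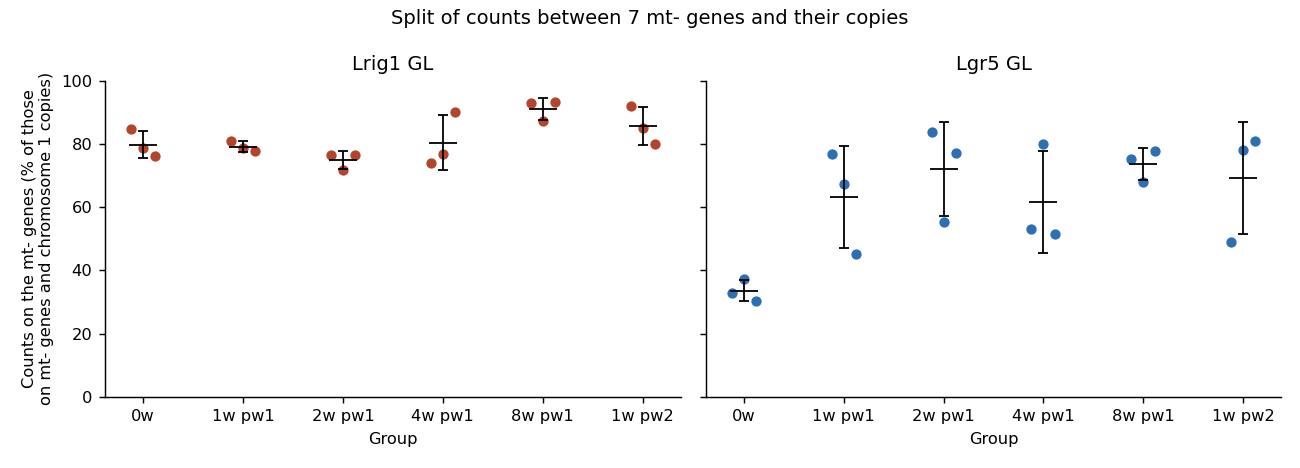
Counts on 7 mitochondrial genes as a percentage of the counts on these genes and their copies on chromosome 1, with 1 point per library and the group mean ± SD. Lrig1 GL libraries sit between 71.8 and 93.3%, and the 3 Lgr5 GL libraries at 0w, at 30.4 to 37.2%, lie below all others.

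Levels can be compared between genes only per length, here as TMM scaled CPM per kb of gene. At 0w in Lrig1 GL the order was led by mt-Rnr2 at 16238 ± 5573 CPM per kb (mean ± SD, n = 3), followed by mt-Nd1 at 5089 ± 1924, mt-Cytb at 3127 ± 763 and mt-Co1 at 2493 ± 222. The lowest were mt-Nd4l at 122 ± 93.2 and mt-Nd3 at 71.6 ± 30.1 CPM per kb. Genes next to each other in this order differed by less than the sum of their SDs, except mt-Rnr2 and mt-Nd1, and mt-Co1 and mt-Co3, which were further apart. At 8w pw1 mt-Rnr2 still had the highest mean, 30055 ± 6577 CPM per kb, but mt-Co3 at 25419 ± 12975 and mt-Co1 at 21762 ± 6749 differed from it by less than the sum of the SDs, with mt-Nd1 at 12347 ± 998 and mt-Co2 at 10274 ± 5583 after them. In Lgr5 GL the order at 0w was the same over the first 4 genes, with mt-Rnr2 at 9441 ± 4216, mt-Nd1 at 3204 ± 1149, mt-Cytb at 2573 ± 748 and mt-Co1 at 1831 ± 479 CPM per kb. mt-Nd3 was again the lowest, and at 8w pw1 the same 4 genes led. Counts on the chromosome 1 copies are left out of all these levels. In Lgr5 GL at 0w the copy Gm28437 had 11067, 10439 and 16568 counts, against 2214, 2566 and 3573 of mt-Co3 itself. The orders in Lgr5 GL, and their likeness to that of Lrig1 GL, thus depend on how reads were divided between genes and copies. Although all protein genes but mt-Nd6 lie on the same strand, their levels at 0w in Lrig1 GL spanned from 71.6 to 5089 CPM per kb.

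**Figure D5:**
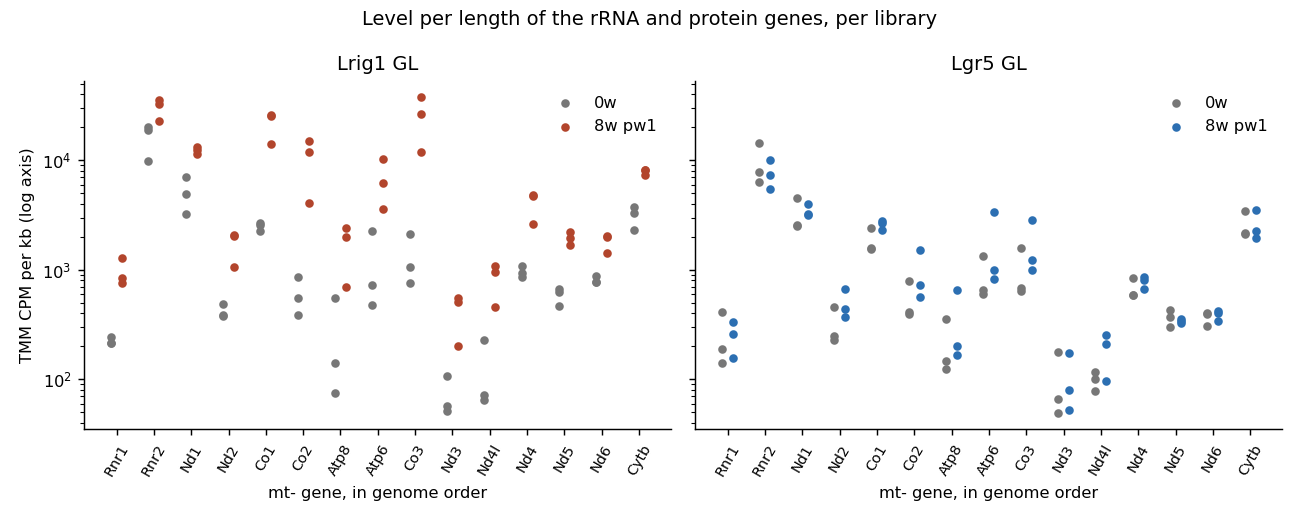
CPM scaled by TMM per kb of gene (log axis) of the rRNA and protein genes in genome order, with 1 point per library at 0w (grey) and at 8w pw1 (coloured). In Lrig1 GL the points of 8w pw1 sit above those of 0w in all 15 genes, and in Lgr5 GL they overlap in each gene.

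Other transcripts were read beside the mitochondrial ones. Of the nuclear genes for respiratory chain subunits, 18 of 88 tested fell and 0 rose in Lrig1 GL at 8w pw1, where 1.31% of all genes were called lower, with a median log2 change of -0.79. Examples are Cox4i1 (-1.32, adjusted p = 0.016) and Cox7a2l (-2.25, adjusted p = 0.013), both of complex IV or its assemblies, Uqcr11 of complex III (-1.28, adjusted p = 0.0245) and Ndufa13 of complex I (-1.56, adjusted p = 0.0238). In complexes I and IV the mitochondrially encoded subunits that passed had risen, and the nuclear encoded subunits that passed had fallen. In Lgr5 GL 0 of 90 were called at 8w pw1, and 1 of 90 rose at 1w pw1, Cox6a1 (1.30, adjusted p = 0.0419), a share no higher than the 1.29% of all genes called there. Yet 86 of these 90 changes at 1w pw1 were positive, with a median of 0.71 beside -0.08 over all genes. At 1w pw2 against 1w pw1 only 5 of 90 were positive, with a median of -0.71 beside 0.09 over all genes, and 0 were called. Of the genes for mitochondrial transcription, RNA processing and genome copying, 0 of 34 were called in Lrig1 GL at 8w pw1 (median 0.08), and 1 of 35 in Lgr5 GL at 1w pw1, Rexo2 (1.97, adjusted p = 0.039), a nuclease that degrades short mitochondrial RNA, which is 1 gene beside the same 1.29%.

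Some measures moved with the change at 8w pw1 in Lrig1 GL. Its mitochondrial rRNA and protein genes are low in GC content (31.9 to 41.1%), and the 1643 nuclear genes in this range had a median log2 change of 1.27, with 4.5% called higher and 0% lower, beside -0.01 and 1.45% over all 14232 nuclear genes of known GC content. In Lgr5 GL at 8w pw1 the nuclear genes in this range had a median of -0.02. The nuclear respiratory chain genes that were tested had a median GC content of 50.2%. Summed nuclear retained RNAs (Malat1, Neat1 and Kcnq1ot1) were at 2925, 7898 and 3499.6 CPM at 0w and 15428, 11813 and 11955 CPM at 8w pw1 without overlap, but they were also at 11509, 8858 and 9333 CPM at 1w pw1. Summed markers of the bulge and lower follicle (Lgr5, Cd34, Sox9 and Lhx2) were lower without overlap, at 2357, 1589 and 1292 CPM at 0w and 749, 859 and 612 CPM at 8w pw1, and so were those of the upper follicle (Lrig1, Plet1, Krt79 and Gata6), at 3239, 3600.2 and 3375 and 2031, 2806 and 2169.9 CPM. No single gene of these 2 lists passed the test. Sox9 made up most of the bulge and lower follicle sum (median 634 CPM, beside 51.5 for Lgr5, 31.2 for Lhx2 and 6.92 for Cd34). At 8w pw1 Sox9 changed by -1.41 and Cd34 by -2.77 on the log2 scale, but Lgr5 and Lhx2 by only -0.22 and -0.23. Krt79 made up most of the upper follicle sum (median 2043 CPM). It changed by -0.52, beside -1.11 for Lrig1, -0.45 for Plet1 and -0.29 for Gata6. Genes of cell stress during isolation summed to 818, 1997 and 2037 CPM at 0w and 2255, 1664 and 1722 CPM at 8w pw1, which overlapped, although 1 of the 10 genes, the heat shock gene Hspa1b, rose by 2.14 on the log2 scale (adjusted p = 0.0363). The part of GC content in the mitochondrial changes was not tested beyond the fit without the GC trend, and that of nuclear RNA, follicle markers and stress genes was not tested.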

How the data were processed

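Raw counts per gene were used as the authors deposited them, in 1 table for Lrig1 GL and 1 for Lgr5 GL. By the methods and the submitters' processing notes, reads of Smart-seq2 mini-bulk libraries with oligo(dT) capture were trimmed with Trim Galore 0.5.0, aligned with HISAT2 to mm10 (GRCm38) and counted over exons by gene name with featureCounts (GENCODE M20). The strand setting and the treatment of reads with several positions are not given in the sources used here. Members and lists were chosen with earlier results of these data known. Groups came from the labels. For 21 of 36 libraries the column names give the group but no replicate number, and these are called a, b and c.

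Counts were filtered with filterByExpr and scaled by TMM within each population (18 libraries), and fitted with edgeR's quasi-likelihood test (edgeR 4.0.16, R 4.3.3) with Benjamini-Hochberg adjustment over all genes tested. Called means that the adjusted p was under 0.05 and the log2 change over 1 in size, except in the interaction model over 36 libraries, where only the adjusted p was used. Folds used a prior count of 0.125. Likelihood ratio tests, DESeq2 1.42.0, surrogate variables (sva 3.50.0), other scalings and filters, a GC trend, near-copies summed in, the replicate number as a block and leaving out each library were alternatives. The paper's own analysis applied surrogate variables to its normalized counts before testing, so the main fit here differs from it in that step. The fits were tested on simulated data. Named are all rRNA and protein genes, tRNA genes that were called or among the 5 with the highest mean count, and of other lists the called genes, at most 6 a list by adjusted p over the time course. Gene positions, overlaps and sequences came from GENCODE M21 (GRCm38) transcripts, and copies were found with blastn 2.17.0. Totals per library were 765252 to 6960537 counts.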

Additional observations from a re-analysis of the deposited data

Results flagged for a closer look

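The change of mt-Rnr1 at 8w pw1 against 0w differed between the populations by 2.17 ± 0.53 on the log2 scale (SE, edgeR's quasi-likelihood test of the interaction, adjusted p = 0.0425), with all 3 Lrig1 GL libraries at 8w pw1 above all at 0w and the Lgr5 GL libraries of these time points overlapping. With the GC trend removed 0 genes differed, and the difference was not called in most fits that left out 1 library.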

How the results depend on the processing

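For Lrig1 GL at 8w pw1 (8 genes called), the count was 16 with the likelihood ratio test (1408 of all genes) and 16 with DESeq2 (1571). It was 0 with 2 surrogate variables (0 of all genes) and 0 with the GC trend removed (66). It was 0 to 9 when 1 library was left out, the lowest without replicate a of 8w pw1. It was 8 with DESeq2 size factors (419 of all genes), 8 with scaling on nuclear genes (423), 7 without a filter (226), 11 with a stricter one (640) and 10 with near-copies summed in (401). The main fit called 404 of all genes. Over the time course (6 called) these were 12, 14, 0, 0 and 0 to 9 (1999, 1881, 9 and 71 of all genes in the first 4). At 1w pw2 against 0w (1 called), the count was 0 without a filter (123 of all genes), 2 with a stricter filter (271), 4 with the likelihood ratio test (825), 5 with DESeq2 (1019), 0 with surrogate variables (which called 0 of all genes), 0 with the GC trend removed (63) and 0 to 3 when 1 library was left out. At 1w pw1 (0 called), the likelihood ratio test and DESeq2 each called 1 (287 and 348 of all genes). The difference between the populations at 8w pw1 (1 called) was 6 with the likelihood ratio test (693 of all genes), 0 with the GC trend removed (22) and 0 to 4 when 1 library was left out. Over the time course of Lgr5 GL (0 called) leaving out 1 library gave 0 to 1, with 1 without replicate b of 2w pw1. In each case the cause was not tested.

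Signs turned in few genes. With the GC trend removed, changes at 8w pw1 in Lrig1 GL were -0.79 for mt-Rnr2, -0.11 for mt-Nd1 and -0.61 for mt-Nd6, and those of mt-Rnr1, mt-Co1, mt-Co2, mt-Co3 and mt-Nd4 were 0.50, 1.99, 2.77, 2.97 and 0.46. At 4w pw1 in Lgr5 GL, 2 surrogate variables gave 0.0113 for mt-Co2, 0.11 for mt-Atp8, 0.0917 for mt-Atp6 and 0.0833 for mt-Co3, and near-copies summed in gave -1.19 for mt-Nd4l. Leaving out 1 library there gave -0.78 to 0.12 for mt-Co2, -1.69 to 0.14 for mt-Atp8, -1.10 to 0.10 for mt-Atp6, -0.98 to 0.19 for mt-Co3, -1.11 to 0.11 for mt-Nd3 and -0.66 to 0.65 for mt-Nd4l.

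Without the counts of Gm12415, mean mitochondrial shares of Lgr5 GL were 3.88% at 0w, 4.32% at 1w pw1, 4.14% at 2w pw1, 2.43% at 4w pw1, 3.98% at 8w pw1 and 3.36% at 1w pw2, and with near-copies counted the share at 0w was 3.37%. Labelled replicate numbers are shared by 0w, 1w pw1 and 1w pw2 of Lrig1 GL and by 1w pw1 and 1w pw2 of Lgr5 GL. Correlations of the deviations of same-numbered libraries were -0.0576 to 0.1249 and -0.072 to 0.017, so the numbers were not taken to pair libraries. With the replicate number as a block, 0 genes were called at 1w pw2 against 0w in Lrig1 GL, as was the case without the block over the same 9 libraries. tRNA genes with counts near the floor limit what depth can show.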
